A study of Homo sapiens with 3 samples.

Results

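MEF2 factors and class IIa histone deacetylases were followed in KMS11, an established human myeloma line with the t(4;14) translocation, after infection with lentiviruses encoding short hairpin RNAs against MMSET. MMSET, current symbol NSD2, is the histone methyltransferase gene that this translocation places under immunoglobulin enhancers. The members were 7 genes, the MEF2 factor genes MEF2A, MEF2C and MEF2D and the class IIa deacetylase genes HDAC4, HDAC5, HDAC7 and HDAC9, out of 19775 genes with a probe set of their own on the array. They were represented by all 22 probe sets, of 54613, whose single gene symbol was a member. The groups were shMMSET#2 and shMMSET#4, which received different hairpins against MMSET, and shLuc, which received a control hairpin against luciferase, a gene human cells lack. All were collected at 48 h, after the infection mixture had been replaced with normal medium, and each group had 1 array of total RNA. All came from the same line, the labels name no other treatment, and a selection step for infected cells was not given in the sources used here.

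MEF2 proteins are DNA-binding transcription factors of the MADS box family that turn signals from calcium and MAP kinases into gene expression. Class IIa histone deacetylases bind MEF2 proteins in the nucleus and hold their target genes silent. Kinases phosphorylate the deacetylases, which are then bound by 14-3-3 proteins and leave the nucleus, so that MEF2 can recruit coactivators. In the B lineage MEF2C acts in B cell receptor responses and germinal centre formation, and HDAC7 is needed for early B cell identity, as shown in mice.

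MEF2 proteins bind an A/T-rich element, the MEF2 box, and HDAC9 is among its known targets. RefSeq windows of 300 bases (250 before and 50 after an annotated transcription start, GRCh38.p14) were found for 6 of the 7 members, all but HDAC5, and gave 22 windows. A MEF2 box on either strand lay in 3 of these 22, against 2.99% of 35116 windows of all genes. The box of the MEF2A window, CTAAAAATAG, recurred letter for letter on the other strand of the HDAC9 window. These letters, which are one case of the MEF2 box, lay on either strand in 0.142% of all windows, and were picked after the windows had been searched. These 3 windows are shown because they place members of the circuit beside the element that other members bind, with the MEF2 box in capitals and the sequence 5′ to 3′ on the gene's strand. The HDAC9 window is chr7:18086575-18086874 on the plus strand, the MEF2A window is chr15:99565734-99566033 on the plus strand and the MEF2C window is chr5:88824295-88824594 on the minus strand.
HDAC9: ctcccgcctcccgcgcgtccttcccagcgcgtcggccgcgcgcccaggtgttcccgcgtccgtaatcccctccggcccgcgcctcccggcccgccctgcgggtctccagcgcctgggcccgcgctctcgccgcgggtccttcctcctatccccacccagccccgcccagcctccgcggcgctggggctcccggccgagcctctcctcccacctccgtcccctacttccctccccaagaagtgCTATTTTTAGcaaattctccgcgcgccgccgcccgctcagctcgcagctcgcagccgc
MEF2A: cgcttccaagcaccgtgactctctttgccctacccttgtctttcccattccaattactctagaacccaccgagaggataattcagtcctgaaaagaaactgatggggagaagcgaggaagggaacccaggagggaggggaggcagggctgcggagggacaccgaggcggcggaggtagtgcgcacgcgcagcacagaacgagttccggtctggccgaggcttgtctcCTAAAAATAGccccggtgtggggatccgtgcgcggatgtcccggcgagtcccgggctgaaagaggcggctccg
MEF2C: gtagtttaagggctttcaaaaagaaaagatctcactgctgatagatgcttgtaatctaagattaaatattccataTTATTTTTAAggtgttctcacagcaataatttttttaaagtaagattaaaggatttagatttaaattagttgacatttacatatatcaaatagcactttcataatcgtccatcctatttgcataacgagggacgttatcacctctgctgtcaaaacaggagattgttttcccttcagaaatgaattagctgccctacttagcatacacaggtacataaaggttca
The box begins 8 bases before the annotated start in HDAC9, where it overlaps the start, 23 bases before it in MEF2A and 175 bases before it in MEF2C. The MEF2C box was in 1 of that gene's 7 windows, the HDAC9 box in 1 of 5 and the MEF2A box in 1 of 3. No such letters were in the windows of MEF2D (1), HDAC4 (5) or HDAC7 (1). A match is a description of the letters, and the arrays do not show which start was used or whether any factor was bound.

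The values are MAS5 signals, linear array brightness per probe set, scaled by the authors to the same trimmed mean of 500.1 on each array. A floor was set at the 40th percentile of all signals, 41.2, and ratios that rest on the floor are bounds. Without replicates there is no test, so "lower" and "higher" describe these 3 arrays, and a probe set was called at 2-fold. Spread could be judged from the 2 hairpin arrays alone, whose difference includes any true one between hairpins. This spread leaves out any difference particular to the shLuc array, so lying outside it is no test of a ratio to shLuc. Over 31527 tested probe sets, those above the median signal of at least 1 array, it was within 1.30-fold for the median probe set and within 2.38-fold for 95% of them. Median signals were 62.0 with shMMSET#2 and 59.5 with shMMSET#4, against 77.4 with shLuc. Scaling to the same median therefore shifts the median log2 ratio of all tested probe sets, which becomes 0.20 instead of -0.09 for shMMSET#2 and 0.23 instead of -0.12 for shMMSET#4. The log2 signal of the 3′ ACTB control probe set exceeded that of the 5′ one by 1.14 on each hairpin array and by 1.70 on the shLuc array, and the part of this in the results was not tested. Of the 6 plasma cell markers all were above the floor on every array, with a summed signal of 28031 with shMMSET#2, 49683 with shMMSET#4 and 49299.9 with shLuc, and both t(4;14) markers were above it too. Of 12 markers of other cell types, 4 were above the floor on every array, and their summed signals were 967 with shMMSET#2, 714 with shMMSET#4 and 1183 with shLuc. The part of these marker levels in the results was not tested. The targeted gene NSD2 was lower than shLuc on 6 of its 6 probe sets with shMMSET#2 (median log2 ratio -1.33) and on 5 of 6 with shMMSET#4 (median -0.48), or on 4 of 6 with scaling to the same median signal (median -0.10).

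The group of genes was chosen by these same signals, after MEF2C and MEF2D had been seen to be lower with both hairpins. Their ratios to shLuc are therefore given as a description, and nothing is drawn from how many members were called. Of the 22 member probe sets 20 were tested, and the others were 1 dim probe set each of HDAC7 and HDAC9. Of the 20, HDAC4 1554322_a_at passed the filter only through the shMMSET#2 array and HDAC9 234393_at only through shLuc. Each was highest on that array, and neither would pass the filter on its mean signal. Both MMSET ratios share the same shLuc array, so a high or low signal there enters both.

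**Figure D1:**
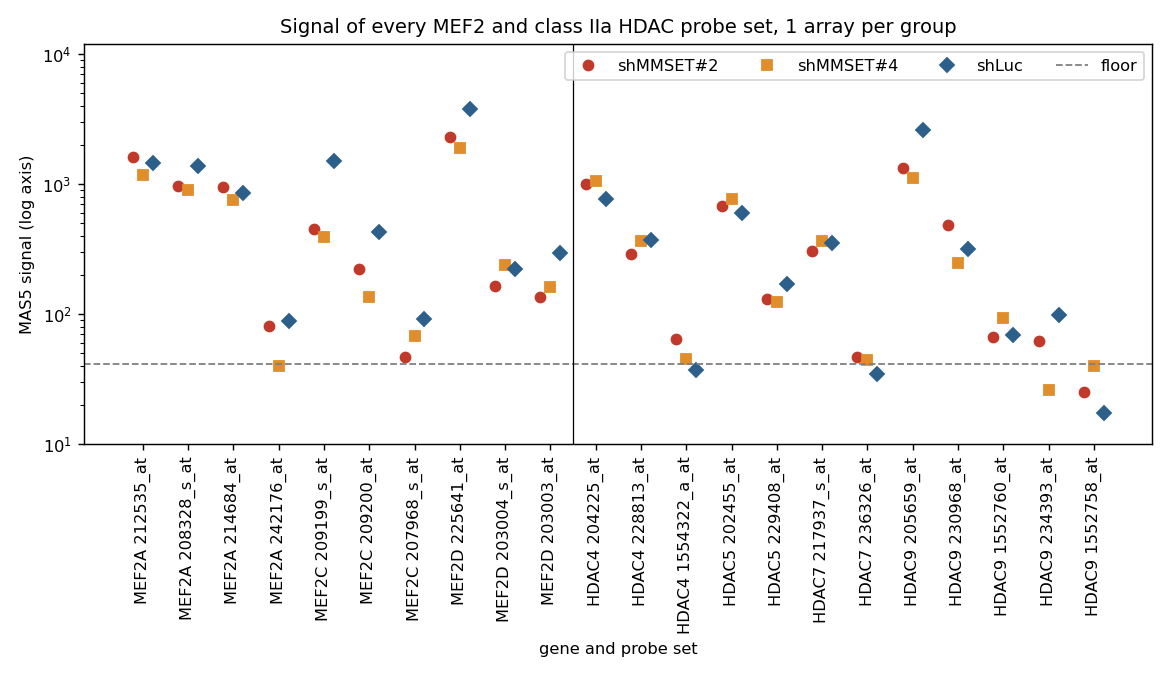
MAS5 signal (log axis) of each of the 22 probe sets of MEF2A, MEF2C, MEF2D (left of the line) and HDAC4, HDAC5, HDAC7, HDAC9 (right of it) on the shMMSET#2 (circles), shMMSET#4 (squares) and shLuc (diamonds) arrays, 1 array per group. The dashed line is the floor of 41.2. On all 3 MEF2C probe sets the shLuc diamond is the highest point, and on HDAC4 204225_at it is the lowest.

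MEF2C, the MEF2 factor most closely tied to lymphocytes, was the member with the lowest ratios. On its brightest probe set, 209199_s_at, the signal was 452 with shMMSET#2 and 389 with shMMSET#4, against 1500.1 with shLuc. Both hairpin arrays were thus far under the control, by 3.32-fold for shMMSET#2 and 3.85-fold for shMMSET#4, while the hairpin arrays differed by 1.16-fold. In bulk RNA, less MEF2C RNA per cell and fewer cells that express it cannot be told apart, for this or any other gene named. In this probe set's signal decile 95% of probe sets differed by less than 2.27-fold between the hairpin arrays, and both MEF2C ratios were outside that spread. On 209200_at the signal was 221 with shMMSET#2 and 136 with shMMSET#4, against 425 with shLuc. The shMMSET#4 ratio, 3.13-fold lower, was outside that decile's spread of 2.49-fold, and the shMMSET#2 ratio, 1.92-fold lower, was inside it. The dimmest, 207968_s_at, had signals of 47.1 with shMMSET#2 and 68.2 with shMMSET#4, against 91.7 with shLuc, near the floor on every array. It was 1.95-fold and 1.35-fold lower, within a spread of 2.50-fold. All 3 MEF2C probe sets were thus lower with both hairpins. Of 3140 genes with at least 3 tested probe sets, 461 (14.7%) had every one of them lower with both hairpins. All 3 stayed lower with both hairpins after scaling to the same median signal and after quantile normalization, the dimmest with shMMSET#4 at a log2 ratio of only -0.05 and -0.07.

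The hairpin arrays were compared for NSD2 and MEF2C. On each of the 6 NSD2 probe sets shMMSET#2 gave the lower signal of the hairpin arrays, with log2 ratios of shMMSET#4 to shMMSET#2 from 0.09 to 1.91. For MEF2C the same log2 ratio was -0.22 on 209199_s_at, -0.70 on 209200_at and 0.53 on 207968_s_at, so MEF2C was lower with shMMSET#4 on the 2 brighter probe sets and lower with shMMSET#2 on the dimmest. All 3 were within the spread between the hairpin arrays, so no order of the hairpins can be given for MEF2C.

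MEF2D, a broadly expressed MEF2 factor that is also active in B-lineage leukaemia fusions, was lower on its brightest probe set. On 225641_at the signal was 2302 with shMMSET#2 and 1888 with shMMSET#4, against 3798 with shLuc. The shMMSET#2 signal was 1.65-fold and the shMMSET#4 signal 2.01-fold lower, both inside the decile's spread of 2.07-fold. On 203003_at the signal was 136 with shMMSET#2 and 163 with shMMSET#4, against 293 with shLuc, which is 2.15-fold and 1.80-fold lower. The remaining probe set, 203004_s_at, had signals of 165 with shMMSET#2 and 238 with shMMSET#4, against 224 with shLuc. There the shMMSET#4 array lay just above the control (1.06-fold) and the shMMSET#2 array 1.35-fold below it. The direction was therefore shared by all 3 MEF2D probe sets with shMMSET#2 but by only 2 of the 3 with shMMSET#4, and these directions held under both other scalings.

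MEF2A, the most widely expressed of these factors, had probe sets that differed in direction with shMMSET#2. On 212535_at the signal was 1606 with shMMSET#2 and 1181 with shMMSET#4, against 1469 with shLuc. On 214684_at it was 947 with shMMSET#2 and 762 with shMMSET#4, against 856 with shLuc. On both, the shMMSET#2 array was the highest and the shMMSET#4 array the lowest, with ratios to shLuc of at most 1.24-fold in either direction. With the arrays scaled to the same median signal, the shMMSET#4 log2 ratios turned from -0.31 to 0.07 on 212535_at and from -0.17 to 0.21 on 214684_at. On 208328_s_at the signal was 971 with shMMSET#2 and 897 with shMMSET#4, against 1387 with shLuc, 1.43-fold and 1.55-fold lower, and lower under both other scalings too. The dim probe set 242176_at had signals of 81.0 with shMMSET#2 and 40.1, under the floor, with shMMSET#4, against 89.2 with shLuc. Its ratios were 1.10-fold lower and at least 2.16-fold lower, and the shMMSET#2 comparison turned to a log2 ratio of 0.18 with scaling to the same median signal and 0.15 with quantile normalization.

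HDAC9, which also gives rise to a form without the deacetylase domain and is itself a known target of MEF2, had probe sets that disagreed. On its brightest, 205659_at, the signal was 1341.5 with shMMSET#2 and 1111 with shMMSET#4, against 2627 with shLuc. The shMMSET#2 array was 1.96-fold and the shMMSET#4 array 2.37-fold lower, the second outside the decile's spread of 2.07-fold. On 230968_at it was 487 with shMMSET#2 and 249 with shMMSET#4, against 316 with shLuc, so that the control lay between the hairpins. The shMMSET#2 array was 1.54-fold higher and the shMMSET#4 array 1.27-fold lower, and the second turned to a log2 ratio of 0.04 with scaling to the same median signal. Among the dim probe sets, 1552760_at had 66.8 with shMMSET#2 and 93.7 with shMMSET#4, against 69.3 with shLuc, and its shMMSET#2 log2 ratio turned from -0.05 to 0.27 with scaling to the same median signal and to 0.26 with quantile normalization. The probe set 234393_at had 61.8 with shMMSET#2 and 26.1, under the floor, with shMMSET#4, against 98.9 with shLuc, which is 1.60-fold lower and at least 2.40-fold lower. The last, 1552758_at, was under the floor on every array and gives no ratio. Over the 4 tested HDAC9 probe sets the log2 ratios spanned -0.97 to 0.62 for shMMSET#2 and -1.26 to 0.43 for shMMSET#4. The lowest shMMSET#4 value is the bound of 234393_at, which passed the filter only through shLuc. The files do not say which transcript form each probe set reads.

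HDAC4, a class IIa deacetylase that represses MEF2 in muscle and brain, was slightly higher with both hairpins on its brightest probe set. On 204225_at the signal was 1012 with shMMSET#2 and 1061 with shMMSET#4, against 770.0 with shLuc. Both arrays were above the control, by 1.31-fold and 1.38-fold, inside the decile's spread of 2.17-fold. On 228813_at the signal was 292 with shMMSET#2 and 363 with shMMSET#4, against 374 with shLuc. Here the shMMSET#2 array was 1.28-fold lower and the shMMSET#4 array 1.03-fold lower, and the log2 ratio with shMMSET#4 became 0.34 with scaling to the same median signal and 0.09 with quantile normalization. The dim 1554322_a_at had 64.7 with shMMSET#2 and 45.3 with shMMSET#4, against 37.0, under the floor, with shLuc, which bounds the ratios at 1.57-fold or more higher for shMMSET#2 and 1.10-fold or more higher for shMMSET#4.

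HDAC5 and HDAC7, the remaining class IIa deacetylases, differed from shLuc by at most 1.38-fold on every tested probe set. For HDAC5 202455_at the signal was 674 with shMMSET#2 and 763 with shMMSET#4, against 603 with shLuc, 1.12-fold and 1.26-fold higher. For HDAC5 229408_at it was 129.9 with shMMSET#2 and 124 with shMMSET#4, against 171 with shLuc, 1.32-fold and 1.38-fold lower. The HDAC5 probe sets thus pointed in opposite directions. For HDAC7 217937_s_at the signal was 306 with shMMSET#2 and 368 with shMMSET#4, against 355 with shLuc. The shMMSET#2 array was 1.16-fold lower and the shMMSET#4 array 1.04-fold higher, and with scaling to the same median signal the log2 ratio with shMMSET#2 turned from -0.22 to 0.10. The dimmer HDAC7 probe set 236326_at, with 46.5 with shMMSET#2 and 44.3 with shMMSET#4, against 34.8 with shLuc, did not pass the filter.

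**Figure D2:**
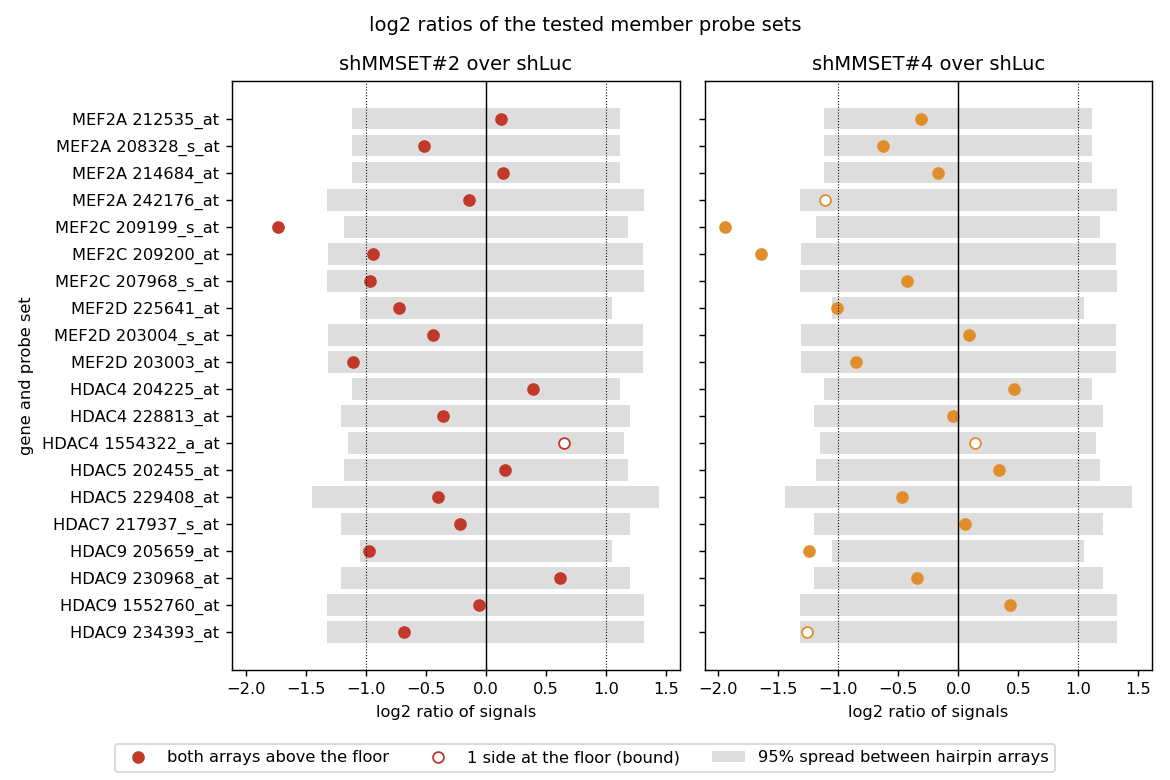
log2 ratio of signals for the 20 tested member probe sets, shMMSET#2 over shLuc (left) and shMMSET#4 over shLuc (right), with dotted lines at 2-fold. Filled points have both arrays above the floor, open points are bounds, and each grey bar spans the difference that 95% of probe sets in the same signal decile stay within between the hairpin arrays. Lying outside their bars are MEF2C 209199_s_at with both hairpins and MEF2C 209200_at and HDAC9 205659_at with shMMSET#4.

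By family, shMMSET#2 gave 2 of 10 MEF2 probe sets at least 2-fold lower and shMMSET#4 gave 4 of 10. Among all 31527 tested probe sets the shares were 11.9% for shMMSET#2 and 13.4% for shMMSET#4. Of the 4 with shMMSET#4, MEF2A 242176_at gives a bound and MEF2D 225641_at was only 2.01-fold lower. With scaling to the same median signal the MEF2 counts were 1 with shMMSET#2 and 2 with shMMSET#4, and the shares of all tested probe sets were also smaller, 5.65% and 5.89%. The median MEF2 log2 ratio was -0.62 with shMMSET#2 and -0.74 with shMMSET#4, against -0.09 and -0.12 over all tested probe sets. It stayed negative with scaling to the same median signal (-0.30 and -0.36) and with quantile normalization (-0.60 and -0.64). Of 10 tested class IIa deacetylase probe sets shMMSET#2 gave none at least 2-fold lower and shMMSET#4 gave 2, both of HDAC9. Of these 2, 234393_at gives a bound and passed the filter only through shLuc, where it is highest, so nothing is drawn from it. The median log2 ratios of the 10 probe sets were -0.13 and 0.01. They turned to 0.19 and 0.31 with scaling to the same median signal and to 0.06 and 0.14 with quantile normalization. No member probe set was at least 2-fold higher with either hairpin, against 5.66% of all tested probe sets with shMMSET#2 and 5.58% with shMMSET#4. With both hairpins 1 member probe set, MEF2C 209199_s_at, was at least 2-fold lower, against 5.94% of all. Across members, 1 probe set was lower than shLuc by more than its decile's spread with shMMSET#2 and 3 with shMMSET#4, against 6.42% and 7.12% of all tested probe sets. Over the deposited scaling and both others, 9 of 20 probe sets were lower with both hairpins throughout and 3 were higher with both throughout. The 9 include HDAC9 234393_at and the 3 include HDAC4 1554322_a_at, each let through the filter only by its highest array. The same share over all tested probe sets was not taken, so nothing is read from these counts. In the deposited scaling 55.3% of all tested probe sets were lower with shMMSET#2 and 56.8% with shMMSET#4.

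The hairpins were also set against each other, a comparison free of the shLuc array. None of the 20 tested member probe sets differed by 2-fold between shMMSET#4 and shMMSET#2, against 10.6% of all tested probe sets that did. The widest were MEF2A 242176_at, at least 1.96-fold lower with shMMSET#4, and HDAC9 230968_at, 1.96-fold lower with shMMSET#4.

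**Figure D3:**
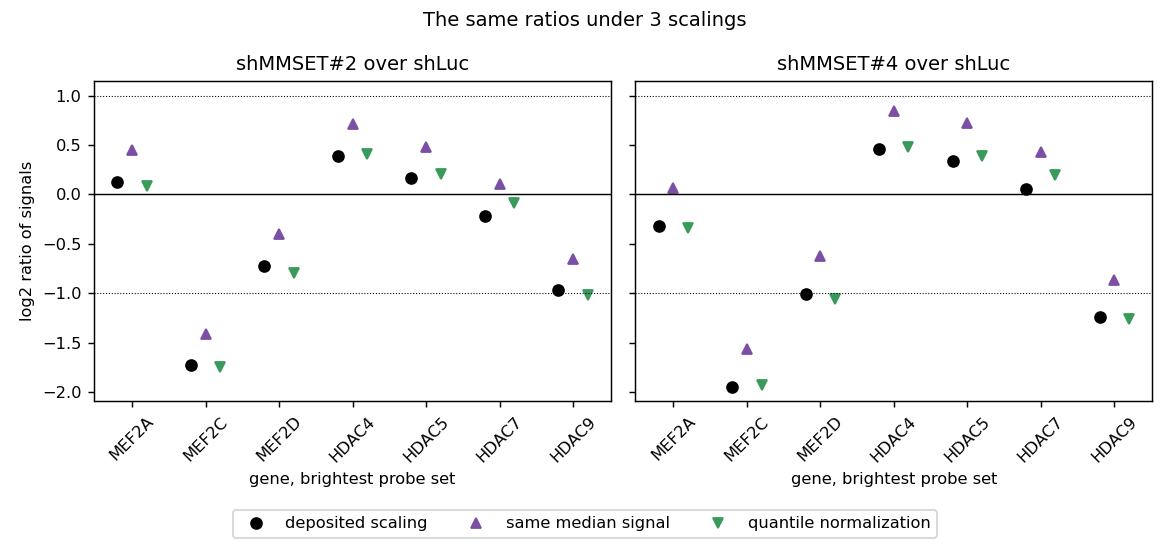
log2 ratio to shLuc of each member gene on its brightest probe set, with shMMSET#2 (left) and shMMSET#4 (right), for the deposited scaling (circles), all arrays scaled to the same median signal (upward triangles) and quantile normalization (downward triangles). MEF2C, MEF2D and HDAC9 lie under 0 in both panels and HDAC4 and HDAC5 above 0 under all 3 scalings, whereas MEF2A with shMMSET#4 and HDAC7 with shMMSET#2 cross 0.

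Genes reported elsewhere as MEF2 targets formed a list written with earlier results of these data known. Of its 10 tested genes, 9 had log2 ratios under 0 with shMMSET#2 and 8 with shMMSET#4, under each of the 3 scalings. Among all tested genes 6986 and 6867 of 13296 were under 0 in the deposited scaling, with the hairpins in the same order. With scaling to the same median signal 4537 and 3878 of 13289 were, and with quantile normalization 6304 and 6150 of 13288. With each gene on its brightest probe set, shMMSET#2 gave 2 of the 10 list genes at least 2-fold lower and shMMSET#4 gave 7. The shares of all 13296 tested genes were 10.7% and 8.95%. Past 2-fold with both hairpins, against 4.35% of all tested genes, were PPARGC1A, a coactivator of mitochondrial genes, with 129 with shMMSET#2 and 172 with shMMSET#4, against 542 with shLuc, and BCL6, the germinal centre repressor, with 143 with shMMSET#2 and 169 with shMMSET#4, against 425 with shLuc. That is 4.19-fold and 3.15-fold lower for PPARGC1A and 2.97-fold and 2.51-fold lower for BCL6.

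The other targets are named with their values seen. JUN, an AP-1 subunit, had 4157 with shMMSET#2 and 1919 with shMMSET#4, against 7346 with shLuc, which is 1.77-fold and 3.83-fold lower. NR4A2, an orphan nuclear receptor, had 124 with shMMSET#2 and 57.1 with shMMSET#4, against 239 with shLuc. For both genes the shMMSET#4 array was the lowest and the shMMSET#2 array lay between it and the control. The Krueppel-like factors KLF2 (log2 ratios -0.38 with shMMSET#2 and -1.35 with shMMSET#4) and KLF4 (-0.45 and -1.08) and the receptor NR4A1 (-0.43 and -0.98) had the same order, although a dimmer KLF2 probe set had log2 ratios of 0.05 and 0.16. HHEX, a homeobox factor, was higher with both (0.94 and 0.12), and EGR1, an immediate early factor, was lower with shMMSET#2 (-0.68) and higher with shMMSET#4 (0.51). HDAC9, the remaining target, is a member described above. For these 10 genes the log2 ratios had a median of -0.75 with shMMSET#2 and -1.28 with shMMSET#4, against -0.04 and -0.02 over all tested genes, and stayed negative with scaling to the same median signal (-0.43 and -0.90). Under that scaling 3 genes rather than 7 were at least 2-fold lower with shMMSET#4, against 3.77% of all tested genes rather than 8.95%.

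The lists of genes around the members were read in the same way, on brightest probe sets. At least 2-fold higher were 5.69% of all tested genes with shMMSET#2 and 6.74% with shMMSET#4. In lists of this size a count of 0 is close to these shares, so nothing is read from it. Of 15 class IIa kinase genes, none was at least 2-fold lower or higher with both hairpins, against 4.35% lower and 2.83% higher among all tested genes. Their medians were -0.07 with shMMSET#2 and -0.13 with shMMSET#4, and turned to 0.25 and 0.25 with scaling to the same median signal, the second also to 0.07 with quantile normalization. The brightest were PRKD3, a protein kinase D (log2 ratios -0.56 and -0.30), and SIK1, a salt-inducible kinase (-0.18 and -0.50). The other tested SIK1 probe set went the other way, with log2 ratios of 1.10 with shMMSET#2 and 0.75 with shMMSET#4. The kinases past 2-fold with 1 hairpin, named with their values seen, were CAMK2D, a calcium/calmodulin kinase, and PRKAA1, the catalytic AMP kinase subunit. CAMK2D had 5811 with shMMSET#2 and 2083 with shMMSET#4, against 6095 with shLuc, and was lower with shMMSET#4 on all 4 of its probe sets (log2 ratios -1.55 to -1.17). PRKAA1 had 1963 with shMMSET#2 and 1023 with shMMSET#4, against 569.9 with shLuc, although its 4 probe sets ran from -0.24 to 1.78 with shMMSET#2.

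None of the 7 genes of the 14-3-3 proteins, which hold phosphorylated deacetylases in the cytoplasm, was past 2-fold with either hairpin, a count near the shares over all tested genes. Their medians were 0.07 with shMMSET#2 and -0.09 with shMMSET#4, the second turning to 0.29 with scaling to the same median signal, with YWHAB at 0.09 and 0.13 and YWHAQ at 0.07 and -0.09. Of 7 tested genes of calcineurin, a calcium-dependent phosphatase that activates MEF2, and its regulators, 1 was at least 2-fold lower with both hairpins. This was RCAN3, a calcineurin regulator, with 1373 with shMMSET#2 and 1414 with shMMSET#4, against 3259 with shLuc, 2.37-fold and 2.31-fold lower. In the deposited scaling all 3 of its probe sets were lower, with log2 ratios of -1.25 to -0.31 with shMMSET#2 and -1.21 to -0.19 with shMMSET#4. With scaling to the same median signal no gene of this list was at least 2-fold lower. PPP3CB, a catalytic subunit gene named with its values seen, had 4052 with shMMSET#2 and 2260 with shMMSET#4, against 1734 with shLuc, 2.34-fold and 1.30-fold higher. The list medians were -0.40 and -0.28, and the second turned to 0.10 with scaling to the same median signal. Of 6 tested MAP kinase genes upstream of MEF2 none was past 2-fold with both, with medians of 0.25 and 0.09. MAP3K2 (0.77 and 0.29) and MAP3K3 (0.33 and -0.12), kinases of the ERK5 cascade, were the brightest. MAPK11, a p38 kinase gene named with its values seen, was above the floor only with shMMSET#4, at 175, and at least 4.24-fold higher there than with shLuc. Its only tested probe set passed the filter only through that array, where it is highest, so nothing is drawn from it.

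Of 8 tested genes for corepressors that class IIa deacetylases bind, none was past 2-fold with both hairpins, with medians of -0.15 with shMMSET#2 and -0.12 with shMMSET#4 that turned to 0.17 and 0.26 with scaling to the same median signal. The brightest were TBL1XR1, a corepressor subunit (0.20 and -0.11), and CBX5, which encodes heterochromatin protein HP1 alpha (0.13 and -0.18). TBL1X, the paralog of TBL1XR1, was named with its values seen and had 1099 with shMMSET#2 and 1717 with shMMSET#4, against 3122 with shLuc. That is 2.84-fold and 1.82-fold lower. In the deposited scaling all 5 TBL1X probe sets were lower with both hairpins, with log2 ratios of -1.51 to -0.87 with shMMSET#2 and -0.86 to -0.36 with shMMSET#4. Of 6 MEF2 coactivator genes none was past 2-fold with both, and the medians of -0.19 and -0.08 turned to 0.13 and 0.30 with scaling to the same median signal. Past 2-fold with shMMSET#2 alone, and named with their values seen, were the acetyltransferase gene KAT2B, with 2673 with shMMSET#2 and 1123 with shMMSET#4, against 1065 with shLuc, and the arginine methyltransferase gene CARM1, with 303 with shMMSET#2 and 576 with shMMSET#4, against 615 with shLuc. The brightest were the acetyltransferase gene CREBBP (-0.29 and -0.30) and the steroid receptor coactivator gene NCOA2 (-0.10 and -0.27). Each had 3 tested probe sets, which differed. The highest CREBBP log2 ratio was 1.09 for shMMSET#2 and 0.04 for shMMSET#4, and its brightest probe set gave the lowest. The lowest NCOA2 log2 ratio was -1.07 for shMMSET#2 and -1.30 for shMMSET#4, while its highest was 0.11 and 0.19.

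The deacetylases of other classes were not past 2-fold with either hairpin on their brightest probe sets, in 7 of 7 genes. Under both other scalings 1 gene was at least 2-fold higher with each hairpin. The shares of all tested genes were 12.2% with shMMSET#2 and 14.9% with shMMSET#4 at the same median signal, and 7.36% and 9.01% with quantile normalization. In a list of this size 1 gene is close to these shares, so nothing is read from it. The medians of the 7 genes were 0.21 with shMMSET#2 and -0.10 with shMMSET#4, and the second turned to 0.28 with scaling to the same median signal. HDAC1 had 11870 with shMMSET#2 and 9615 with shMMSET#4, against 10284 with shLuc, and HDAC2 had 4715 with shMMSET#2 and 5024 with shMMSET#4, against 3833 with shLuc. Both encode catalytic subunits of nuclear corepressor complexes, and both differed from the control by at most 1.31-fold on these probe sets, while a second HDAC2 probe set had log2 ratios of 0.11 with shMMSET#2 and -0.71 with shMMSET#4. SRF, the other MADS box factor tested, had log2 ratios of -0.62 and -0.29 on its brightest probe set, the second turning to 0.09 with scaling to the same median signal, and of 1.39 and 1.59 on the other. The probe set of MEF2B, the remaining MEF2 factor, carries several gene symbols, was under the floor on all arrays and was not a member.

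**Figure D4:**
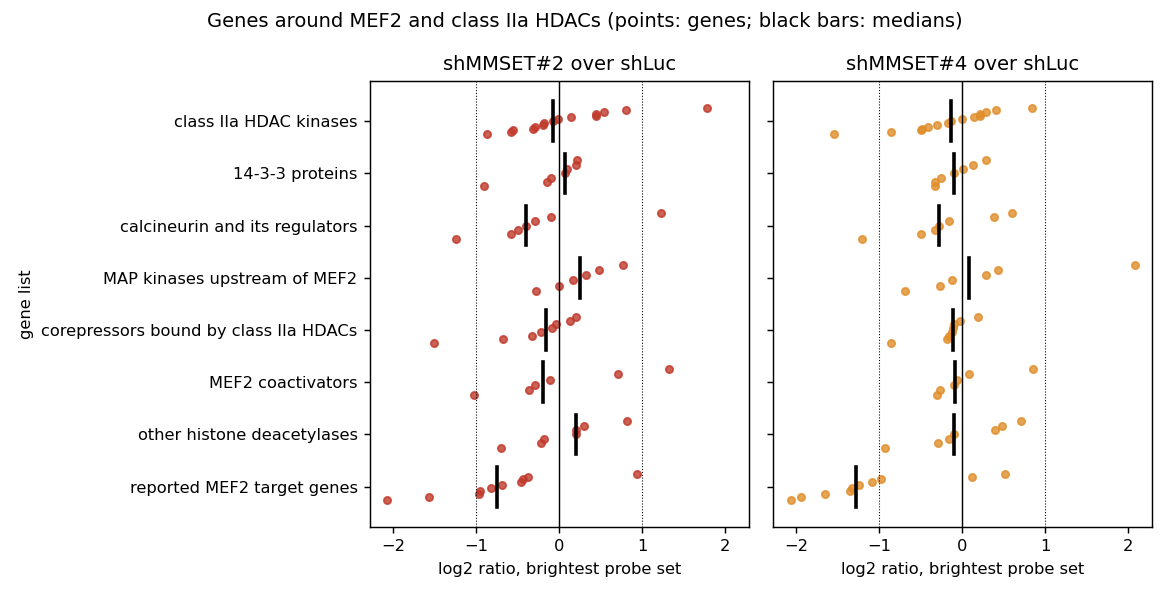
log2 ratio to shLuc of the tested genes of 8 lists around MEF2 and class IIa deacetylases on their brightest probe sets, shMMSET#2 (left) and shMMSET#4 (right). Points are genes, black bars are list medians and dotted lines mark 2-fold. The MEF2 target list has the lowest median in both panels, -0.75 and -1.28, and the other medians lie between -0.40 and 0.25.

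The genes whose pair of log2 ratios lay nearest to that of MEF2C, by Euclidean distance among 11638 genes above the floor on every array, were SNTG2-AS1 (0.11), TPD52L1 (0.17), PCDH10 (0.19), HECW2 (0.20) and EVI2B (0.22). Nearest to MEF2D were LINC01731 (0.015), SS18L1 (0.024), KLHL35 (0.027), BMPR2 (0.031) and FSD2 (0.032). This likeness rests on 2 ratios with a shared control. MEF2D lay at 1.38 from MEF2C, and HDAC9 at 1.04 from MEF2C and 0.34 from MEF2D. By this measure 734 genes lay nearer to MEF2C than MEF2D did, and 6517 lay nearer to MEF2D than MEF2C did.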

How the data were processed

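Biotin-labelled RNA of 3 groups with 1 array each was measured on Affymetrix arrays. The deposited values are intensities, MAS5 signals on a linear scale, per the submitters' processing notes. The design text names GeneSpring, while versions and settings are not given in the sources used here. That text names a smaller array of the same maker, but the 54675 probe sets are those of HG-U133 Plus 2.0, whose annotation named them, with symbols updated by Entrez identifier.

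After 62 control probe sets were left out, signals were floored at the 40th percentile (41.2) and taken to log2. Probe sets above the median of at least 1 array were tested, 31527 of 54613. A gene stands for its brightest probe set, 13296 tested of 19775. Calls were made at 2-fold, with no p-values. The software was pandas 2.3.3, numpy 2.4.6, scipy 1.17.1 and matplotlib 3.10.9 under Python 3.11.15, and the steps were tested on simulated data. Having 3 arrays limits the precision.

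The members and lists were chosen with earlier results of these data known. Named were all members, NSD2, list genes past 2-fold one way with both hairpins or otherwise the 2 brightest, and the 5 genes nearest to MEF2C and to MEF2D. Others are marked as named with their values seen. Alternatives were 2 other scalings, the floor left out or set at the 60th percentile, the filter left out or set on the mean signal, 1.5-fold and 3-fold, no _x_at or _s_at probe sets, and the mean over probe sets.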

Additional observations from a re-analysis of the deposited data

Results flagged for a closer look

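The hairpins lay on opposite sides of shLuc on 6 of 20 tested member probe sets in the deposited scaling. They did so too for 6 named list genes on their brightest probe sets. These genes were sought among the list genes named by the rule and the MEF2 target list. The share of all tested probe sets or genes on opposite sides was not taken, so nothing is read from these counts. With scaling to the same median signal 1 of these 6 probe sets (MEF2D 203004_s_at) and 1 of these 6 genes (EGR1) were still on opposite sides, and MEF2A 242176_at and HDAC4 228813_at came to be. With quantile normalization 5 of the 6 probe sets and 5 of the 6 genes were, besides 242176_at and 228813_at. None of these differences between hairpins was tested, since each group had 1 array. The log2 ratios, shMMSET#2 over shLuc first and shMMSET#4 over shLuc second, were 0.62 and -0.35 for HDAC9 230968_at. They were -0.05 and 0.43 for HDAC9 1552760_at. For MEF2A they were 0.13 and -0.31 on 212535_at and 0.15 and -0.17 on 214684_at. For MEF2D 203004_s_at they were -0.44 and 0.09, and for HDAC7 217937_s_at -0.22 and 0.05. Among list genes they were -0.68 and 0.51 for EGR1, 0.33 and -0.12 for MAP3K3, 0.21 and -0.10 for HDAC1, 0.20 and -0.11 for TBL1XR1, 0.13 and -0.18 for CBX5 and 0.07 and -0.09 for YWHAQ.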

How the results depend on the processing

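No paired analysis was possible because each group had 1 array. Under every alternative tried, the gene-level ratios of MEF2C, MEF2D and HDAC9 were under 0, and those of HDAC4 above 0, with both hairpins, with MEF2C log2 ratios of -1.74 to -0.94 for shMMSET#2 and -1.95 to -1.34 for shMMSET#4. Those of HDAC9 were -0.27 and -0.60 as means over its probe sets, instead of -0.97 and -1.24. These means include HDAC9 234393_at, which passed the filter only through shLuc, where it is highest. The HDAC4 means, 0.23 with shMMSET#2 and 0.19 with shMMSET#4, include 1554322_a_at, which passed it only through shMMSET#2. Means without these probe sets were not taken, so nothing is read from the signs of the HDAC9 and HDAC4 means. MEF2A, HDAC5 and HDAC7 changed sign under at least 1 alternative with at least 1 hairpin, and HDAC7 had no value without its _s_at probe set. The count of MEF2 probe sets at least 2-fold lower with shMMSET#2, 2 in the deposited scaling, was 1 with scaling to the same median signal, 1 with quantile normalization, 1 without _x_at or _s_at probe sets, 1 at 3-fold and 5 at 1.5-fold, where the shares of all tested probe sets were 5.65%, 7.76%, 13.5%, 2.61% and 25.5%. With shMMSET#4 the MEF2 count of 4 was 2 with scaling to the same median signal and 2 at 3-fold (5.89% and 2.99% of all). It was 3 with quantile normalization, 3 with the floor at the 60th percentile and 6 at 1.5-fold (8.23%, 5.32% and 27.1% of all). Without _x_at or _s_at probe sets it was 3 of 6 (16.1% of all). The deacetylase count of 0 with shMMSET#2 was 1 with quantile normalization and 2 at 1.5-fold (7.76% and 25.5% of all). The deacetylase count of 2 with shMMSET#4 was 1 with scaling to the same median signal, 1 with the floor at the 60th percentile, 1 when filtered on the mean signal and 0 at 3-fold (5.89%, 5.32%, 12.2% and 2.99% of all). The count of 0 member probe sets higher with shMMSET#2 was 2 of 20 at 1.5-fold, against 15.7% of all. Of these 2, HDAC4 1554322_a_at passed the filter only through shMMSET#2, where it is highest. Apart from the definitions of thresholds and filters, the cause of these shifts was not tested. Signals near the floor limit the dim probe sets of HDAC9, HDAC7, HDAC4, MEF2A and MEF2C.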
